A study of Mus musculus with 6 samples.

Results

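Transcripts of 10 genes that belong to the stomach lining were followed in organoids grown from intestinal tumors. The genes encode gastric lipase (Lipf), the gastrokines Gkn1, Gkn2 and Gkn3, the trefoil factors Tff1 and Tff2, the mucins Muc1, Muc5ac and Muc6, and the annexin Anxa10. They were found by gene symbol among the 36172 genes of the deposited table, each of the 10 in 1 entry, and were chosen by their RPKM levels in these same libraries, which earlier results had shown. Their levels and differences are therefore described and carry no independent test. Tumor organoids are cultures of tumor epithelium in a gel, here prepared from small intestinal tumors of C57BL/6 mice aged 15 to 20 weeks. All mice carried Apc(D716), a truncation of the Apc tumor suppressor at position 716 with loss of the other Apc allele in the tumors. The 3 Trp53 states were compared on this background. In Apc(D716) p53(+/+) organoids p53 was intact, and in Apc(D716) p53(flox/flox) organoids both alleles were null. In Apc(D716) p53(M/M) organoids both alleles expressed the missense protein R270H from an allele opened by villin-CreER, a tamoxifen-activated recombinase driven in intestinal epithelium. The p53(M/M) mice were given tamoxifen, whereas p53(flox/flox) is the same allele left unopened. Effects of tamoxifen and of R270H therefore cannot be told apart here. RNA from 2 mice per genotype, with organoids prepared independently, gave 6 libraries.

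In the adult stomach, surface pit cells secrete Muc5ac, Tff1, Gkn1 and Gkn2 as a protective gel, mucous neck cells make Muc6, Tff2 and Gkn3, and chief cells secrete digestive enzymes, which include gastric lipase. The intestinal epithelium instead uses Muc2 and Tff3 and is set apart from stomach by the homeobox factors Cdx1 and Cdx2. Stomach transcripts are known to appear in intestinal tumors and in cultured intestinal epithelium whose Cdx activity is low.

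Levels were deposited as RPKM, reads per kilobase of gene, scaled to the mapped reads of each library. No value was below 1 RPKM, so a value of 1 is called the floor here and says only that the level was at or under it. Estimated depth was 44.3 to 47.4 M reads in 5 libraries, so that the floor corresponds to about 44.3 to 47.4 reads per kilobase of gene. In p53(flox/flox) replicate 1 the estimate rested on 7 short genes and is not given. Trp53 stood at 75.9 and 74.3 RPKM in p53(+/+), 1.73 and 2.48 in p53(flox/flox), and 72.8 and 82.7 in p53(M/M), low only where its alleles were null. The 2 p53(flox/flox) libraries stood apart from each other, with a typical SD between replicates of 0.247 on the log2(RPKM+1) scale, against 0.046 in p53(+/+) and 0.062 in p53(M/M). For the 10 stomach genes, every result that rests on them is given by library. All 13 genes listed for intestinal epithelium, among them Vil1, Epcam, Cdx1 and Cdx2, were above the floor in all 6 libraries. Some of the 13, such as Epcam, mark epithelium in general and do not separate intestine from stomach. In bulk RNA, fewer cells that make a transcript and less transcript per cell cannot be told apart.

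The stomach genes lie at 6 places in the genome (RefSeq, GRCm38.p6, equal to mm10). The gastrokines form a row on chromosome 6, with Gkn1 at chr6:87345653-87350915, Gkn2 at chr6:87373365-87379494 and Gkn3 at chr6:87383319-87388935. Muc6 (chr7:141633459-141655393) and Muc5ac (chr7:141788958-141819227) are 133.56 kb apart, and Tff2 (chr17:31141062-31144282) lies between Tff3 and Tff1 (chr17:31161395-31165060). Lipf (chr19:33961248-33976813), Muc1 (chr3:89229056-89233381) and Anxa10 (chr8:62057042-62123193) stand alone. RefSeq promoter windows, from 250 bases before to 50 after the start of transcription, were found for 7 of the 10 genes. The windows of 5 are printed 5′ to 3′ on the gene's own strand because these genes carry the main contrasts between libraries. Lipf separates p53(+/+) from the other genotypes, Gkn1, Gkn3 and Anxa10 separate the 2 p53(flox/flox) libraries, and Muc6 is the one with its highest level in p53(M/M). Capitals mark AGATAA, 1 form of the letters bound by GATA factors, and TATAAA, 1 form of the TATA box. Other forms of either were not searched for and stay in lower case. The windows are chr19:33960998-33961297 (plus strand), chr6:87350866-87351165 (minus), chr6:87388886-87389185 (minus), chr8:62123144-62123443 (minus) and chr7:141655344-141655643 (minus).
Lipf: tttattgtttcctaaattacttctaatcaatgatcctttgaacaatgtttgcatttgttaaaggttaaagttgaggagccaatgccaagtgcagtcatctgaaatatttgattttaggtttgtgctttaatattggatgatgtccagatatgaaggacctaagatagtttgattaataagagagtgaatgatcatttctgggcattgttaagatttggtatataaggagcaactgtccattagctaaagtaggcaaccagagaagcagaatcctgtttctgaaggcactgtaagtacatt
Gkn1: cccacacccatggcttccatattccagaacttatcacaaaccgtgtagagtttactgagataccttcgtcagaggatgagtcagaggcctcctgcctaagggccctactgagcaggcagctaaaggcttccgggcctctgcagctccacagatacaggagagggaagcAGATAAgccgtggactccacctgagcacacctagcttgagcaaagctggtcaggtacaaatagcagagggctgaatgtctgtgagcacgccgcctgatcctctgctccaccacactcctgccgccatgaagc
Gkn3: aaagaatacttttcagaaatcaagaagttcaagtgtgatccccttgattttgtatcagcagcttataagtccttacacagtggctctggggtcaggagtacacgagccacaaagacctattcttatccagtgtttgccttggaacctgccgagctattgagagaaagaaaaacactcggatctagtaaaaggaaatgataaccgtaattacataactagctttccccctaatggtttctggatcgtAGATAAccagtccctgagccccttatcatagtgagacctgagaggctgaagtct
Anxa10: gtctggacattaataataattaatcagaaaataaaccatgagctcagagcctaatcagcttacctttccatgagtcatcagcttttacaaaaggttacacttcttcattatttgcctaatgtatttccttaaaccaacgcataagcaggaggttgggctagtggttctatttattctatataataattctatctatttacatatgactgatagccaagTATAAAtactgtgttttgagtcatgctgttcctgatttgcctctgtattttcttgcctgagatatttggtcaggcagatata
Muc6: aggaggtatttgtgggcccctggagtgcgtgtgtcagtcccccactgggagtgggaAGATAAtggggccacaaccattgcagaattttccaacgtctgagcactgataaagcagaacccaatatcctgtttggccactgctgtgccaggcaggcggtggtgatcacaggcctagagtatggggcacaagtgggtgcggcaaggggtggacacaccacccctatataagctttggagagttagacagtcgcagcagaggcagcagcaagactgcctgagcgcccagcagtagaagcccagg

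AGATAA was read on both strands and lay in the windows of 4 of the 7 genes, Gkn1, Gkn2, Gkn3 and Muc6, in each case on the gene's strand. Over all 32851 RefSeq promoter windows of this length, 11.2% held it. Counted from the start of transcription, it spanned bases -82 to -77 in Gkn1, -218 to -213 in Gkn2, -194 to -189 in Muc6 and -4 to 2 in Gkn3, where it covers the start itself. TATAAA lay at -32 to -27 in Anxa10, -29 to -24 in Gkn2 and -31 to -26 in Muc1, and in 13.6% of all windows. CATAAA, a core read by Cdx factors (11.9% of windows), TGTTTAC, read by Foxa factors (3.6%), CTTTGAT, read by TCF/LEF factors (3.7%), and the p53 half-site (8.4%) were in none of the 7. These are matches of letters in short windows and say nothing of binding.

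The libraries differed in how many of the 10 genes they held above the floor. Both p53(+/+) libraries held 6, p53(flox/flox) replicate 1 held 1 and replicate 2 held 9, and the p53(M/M) libraries held 2 and 3. Over all 36172 genes, 11387 and 11370 were above the floor in p53(+/+), 10718 and 11301 in p53(flox/flox), and 11558 and 11618 in p53(M/M). Each of the 10 was above the floor in at least 1 library. Summed over the 10, with genes at the floor counted as 1 each, the level was 81.7 and 82.2 RPKM in p53(+/+), 12.6 and 117 in p53(flox/flox), and 26.3 and 29.8 in p53(M/M). The p53(flox/flox) genotype thus held both the lowest and the highest sum. The highest sum rested on 1 gene, Gkn3, at 67.6 RPKM in p53(flox/flox) replicate 2 against 11.4 and 8.16 in p53(+/+). Without Gkn3 the sum of that library would lie below those of both p53(+/+) libraries.

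**Figure D1:**
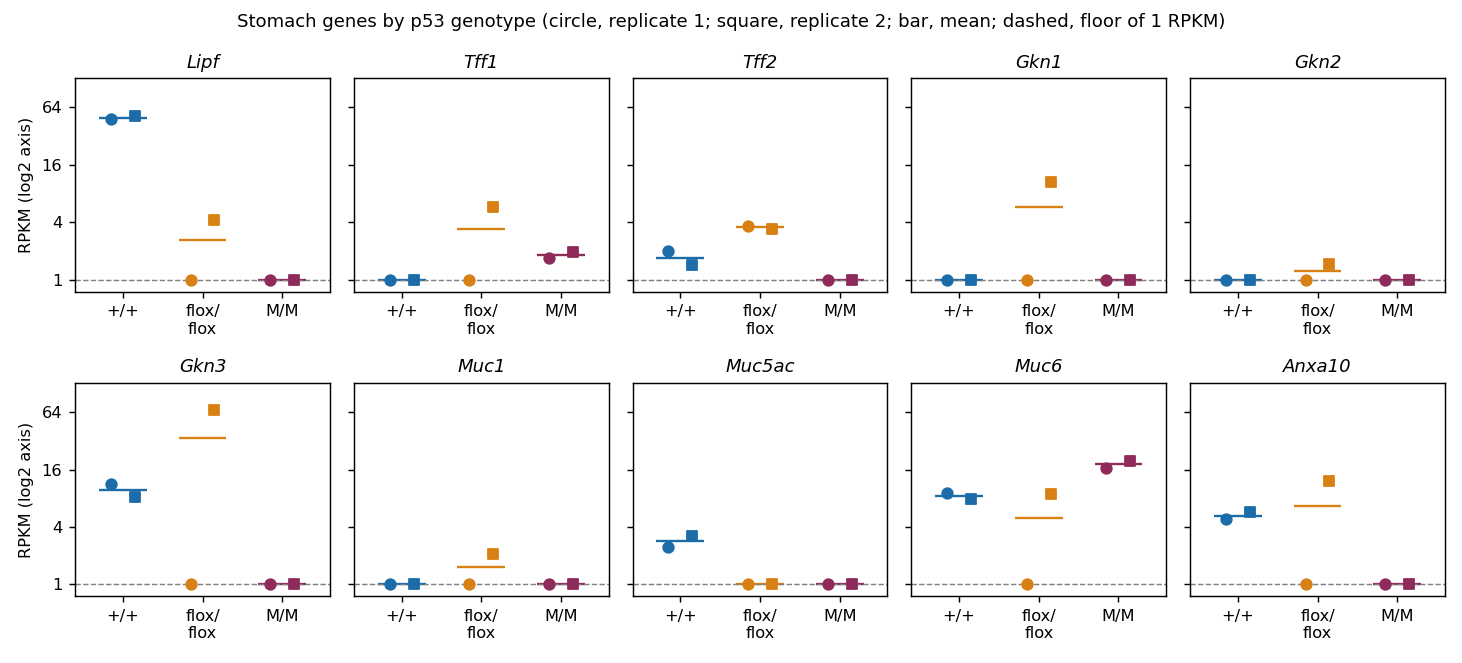
RPKM of the 10 stomach genes on a log2 axis in each of the 6 libraries, by p53 genotype; circles are replicate 1, squares replicate 2, bars the mean of both and the dashed line the floor of 1 RPKM. Lipf is high only in p53(+/+), Muc6 is highest in p53(M/M), and in p53(flox/flox) most circles lie on the floor while the squares reach up to 67.6 RPKM (Gkn3).

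Lipf, the lipase that starts fat digestion in the stomach, was the most abundant of the 10 in p53(+/+) organoids, at 47.9 and 51.9 RPKM (49.9 ± 2.83, mean ± SD, n = 2). These levels were above those of 87.32% and 88.37% of the genes over the floor in the same libraries. It was at the floor in both p53(M/M) libraries and in p53(flox/flox) replicate 1, and at 4.17 RPKM in p53(flox/flox) replicate 2. The p53(+/+) libraries did not overlap with any of the other 4, and their mean was at least 49.9-fold above p53(M/M) and 12.0-fold above p53(flox/flox) replicate 2. The lipase genes Lipk and Lipn, next to it on chromosome 19, were at the floor in all 6 libraries. The lysosomal acid lipase gene Lipa, a relative used by most cells, ranged from 6.22 to 11.7 RPKM and was called in no comparison.

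Among the gastrokines, which are secreted proteins that protect the gastric surface, Gkn3 had the widest range. It was at 11.4 and 8.16 RPKM in p53(+/+) (9.77 ± 2.28, n = 2), at the floor and 67.6 in p53(flox/flox), and at the floor in both p53(M/M) libraries. The p53(flox/flox) libraries lay on both sides of p53(+/+), at least 67.6-fold apart, and replicate 2 was 6.91-fold above the p53(+/+) mean. Gkn1 was at the floor in 5 libraries and at 10.6 RPKM in p53(flox/flox) replicate 2. Gkn2 was likewise above the floor only there, at 1.44 RPKM. All 3 gastrokines were thus highest in the same library, in which Gkn3 stood above 91.26% of the genes over the floor. The genes that flank the row, Antxr1 and Bmp10, were at the floor in all 6 libraries.

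The trefoil factors, small secreted proteins that help mucus form and epithelium heal, followed different patterns. Tff1 was at the floor in both p53(+/+) libraries, at the floor and 5.83 RPKM in p53(flox/flox), and at 1.70 and 1.94 in p53(M/M). Tff2 was at 1.98 and 1.42 RPKM in p53(+/+), 3.64 and 3.40 in p53(flox/flox), and the floor and 1.00 in p53(M/M). Tff2 was the one gene of the 10 that was above the floor in p53(flox/flox) replicate 1, and the one whose p53(flox/flox) libraries lay close together and above every other library. Tff3, the trefoil factor of intestinal goblet cells and their neighbour on chromosome 17, was at 122 and 98.0 RPKM in p53(+/+), 107 and 33.5 in p53(flox/flox), and 44.0 and 50.8 in p53(M/M). Its lowest level was in p53(flox/flox) replicate 2, the library in which Tff1 was highest.

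Of the mucins, Muc6, the gel-forming mucin of gastric glands, was the main one. It was at 9.17 and 7.88 RPKM in p53(+/+) (8.52 ± 0.916, n = 2), at the floor and 8.96 in p53(flox/flox), and at 16.6 and 19.9 in p53(M/M) (18.2 ± 2.32, n = 2). The p53(M/M) libraries were above all others without overlap, 2.14-fold over the p53(+/+) mean, whereas p53(flox/flox) replicate 2 lay between the p53(+/+) libraries. Muc5ac, the gel-forming mucin of pit cells, was at 2.48 and 3.24 RPKM in p53(+/+) and at the floor in the other 4 libraries. The membrane mucin Muc1 was above the floor only in p53(flox/flox) replicate 2, at 2.07 RPKM. Ap2a2, which ends 0.45 kb from Muc6 and encodes an adaptor of clathrin-coated vesicles, ranged from 18.9 to 25.8 RPKM. Muc5b, next to Muc5ac, was at the floor throughout, and Muc13, a membrane mucin of the intestine, ranged from 21.6 to 72.0 RPKM, with its lowest level in p53(flox/flox) replicate 2.

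Anxa10, a calcium-binding annexin of the gastric mucosa, was at 4.81 and 5.68 RPKM in p53(+/+) (5.25 ± 0.615, n = 2), at the floor and 12.2 in p53(flox/flox), and at the floor in both p53(M/M) libraries. As for Gkn3, the p53(flox/flox) libraries lay on both sides of p53(+/+). Of 11 other annexin genes, 10 were tested. Among these was Anxa1, at 80.8 and 78.1 RPKM in p53(+/+), 122 and 149 in p53(flox/flox), and 41.4 and 40.9 in p53(M/M). Anxa8 was at 7.78 and 11.1 RPKM in p53(+/+), the floor and 6.87 in p53(flox/flox), and 1.87 and 1.58 in p53(M/M), and was called in no comparison. Anxa9, which did not pass the filter, was also at the floor in p53(flox/flox) replicate 1.

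Genotypes were compared on the log2(RPKM+1) scale with limma, a moderated test that pools the spread across genes, and 10042 genes that reached 4 RPKM somewhere were tested. P-values were two-sided, with Benjamini-Hochberg adjustment over all 10042, and a gene was called at an adjusted p under 0.05. Of the 10 stomach genes, 6 passed this filter (Lipf, Tff1, Gkn1, Gkn3, Muc6 and Anxa10), and Tff2, Gkn2, Muc1 and Muc5ac did not. Since 2 libraries against 2 cannot give an exact p below 0.333 for a single gene, these p-values depend on the pooled spread, which is uneven between the genotypes.

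Between p53(M/M) and p53(+/+), Lipf was called lower and the other 5 tested genes were not called. The background was 12.2% of all tested genes called in either direction, 5.86% higher and 6.36% lower. The difference of Lipf was -4.67 on the log2(RPKM+1) scale (s.e. 0.44, limma adjusted p = 0.00594), with both p53(M/M) libraries below both p53(+/+) libraries. Gkn3 differed by -2.41 (s.e. 1.59, limma adjusted p = 0.356), Anxa10 by -1.64 (s.e. 0.85, adjusted p = 0.254) and Muc6 by 1.01 (s.e. 0.73, adjusted p = 0.398). The groups of these 3 genes did not overlap either, but the share of all tested genes that separated in this way was not counted. The errors of these 3 genes carry the gap between the 2 p53(flox/flox) libraries. Tff1 differed by 0.49 (adjusted p = 0.600 in limma), and Gkn1 was at the floor in both groups. The median over the 6 was -0.82, beside 0.028 over all tested genes. Fitted on the 4 libraries of these genotypes alone, limma called 5 of the 6, Muc6 and Tff1 higher and Lipf, Gkn3 and Anxa10 lower, but it then called 57% of all genes. Without any 1 of these 4 libraries the call of Lipf was lost, with limma adjusted p from 0.0791 to 0.102; without p53(+/+) replicate 1 or 2 or p53(M/M) replicate 1, no gene at all was called in this comparison, although 1470 to 1578 genes had an unadjusted p under 0.05.

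Between p53(flox/flox) and p53(+/+), which used the same p53(+/+) libraries, Lipf was again called lower and the other 5 were not called, beside 11.3% of all genes called in either direction, 4.38% higher and 6.9% lower. Lipf differed by -3.98 (s.e. 0.44, limma adjusted p = 0.0132). It was below p53(+/+) with either p53(flox/flox) library left out, by -3.30 without replicate 1 and -4.67 without replicate 2 (limma adjusted p = 0.000303 and 0.000155). Without any 1 of the p53(+/+) or p53(M/M) libraries its call was lost (limma adjusted p from 0.0907 to 0.174), as it was in a fit of these genotypes alone (adjusted p = 0.0902). For the other genes the library decided the direction. Gkn3 differed by 0.14 (limma adjusted p = 0.960) with both, by 2.69 without replicate 1 and by -2.41 without replicate 2. Anxa10 differed by -0.28 (limma adjusted p = 0.831) with both, by 1.08 without replicate 1 and by -1.64 without replicate 2. Muc6 differed by -1.09 (limma adjusted p = 0.325) with both, by 0.07 without replicate 1 and by -2.25 without replicate 2. Tff1 and Gkn1 differed by 0.89 and 1.27 with both, by 1.77 and 2.54 without replicate 1, and lay at the floor without replicate 2. Limma called 5 of the 6 genes without replicate 1 and 4 without replicate 2, when it called 40.4% and 68.5% of all genes. The median over the 6 was -0.072, beside -0.025 over all genes. Since Tff1 and Gkn1 passed the filter through p53(flox/flox) replicate 2 alone, it favoured their higher values here and in the fit without replicate 1.

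Between p53(M/M) and p53(flox/flox), limma called 0 of the 6 genes at an adjusted p under 0.05, and 1 of them, Muc6, had an unadjusted p under 0.05. The background was 24.6% of all genes, 13.6% higher and 11.0% lower. Muc6 differed by 2.10 (s.e. 0.73, limma adjusted p = 0.0901), by 0.94 without p53(flox/flox) replicate 1 and by 3.26 without replicate 2, and was called in both of these fits. The differences of Lipf (-0.68), Gkn1 (-1.27), Gkn3 (-2.55) and Anxa10 (-1.36) rest on p53(flox/flox) replicate 2, since all 4 were at the floor in replicate 1 and in both p53(M/M) libraries. Tff1 differed by -0.39, by -1.28 without replicate 1 and by 0.49 without replicate 2. The fits without replicate 1 and without replicate 2 called 6 and 2 of the 6 genes, and 53% and 72.3% of all genes. The median over the 6 was -0.98, beside 0.03 over all genes. Tff1 and Gkn1 passed the filter of 4 RPKM through p53(flox/flox) replicate 2 alone. The filter thus favoured lower p53(M/M) values of both genes, in this median and in the fit without replicate 1.

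The 2 p53(flox/flox) libraries came from different mice, and the stomach genes were among the genes that separated them. Replicate 2 was at least 4-fold above replicate 1 in 6 of the 6 tested stomach genes and in 2.32% of all tested genes (233 of 10042), and the reverse held for none of the 6 and for 0.747% of all. The 6 had passed the filter of 4 RPKM. Tff1 and Gkn1 did so through replicate 2 alone, so that with replicate 1 at the floor their gap was fixed by it. Among the stomach genes that did not pass, with the floor counted as 1, replicate 2 was 0.934-fold replicate 1 for Tff2, 1.44-fold for Gkn2 and 2.07-fold for Muc1. Muc5ac was at the floor in both. Between the replicates of p53(+/+) and of p53(M/M), gaps of that size were found in 2 genes (0.0199%) and 1 gene (0.00996%), none of them a stomach gene. Replicate 1 was at the floor for all 6 and for 3.89% of tested genes, and replicate 2 for none of the 6 and for 1.69%. Both p53(M/M) libraries were at the floor for 4 of the 6 (Lipf, Gkn1, Gkn3 and Anxa10) and for 1.08% of tested genes. Lipf, Gkn3 and Anxa10 were at the floor in p53(flox/flox) replicate 1 and both p53(M/M) libraries and above it in both p53(+/+) libraries, as were 0.538% of tested genes (54). Gkn1 was 1 of 11 tested genes (0.11%) above the floor in p53(flox/flox) replicate 2 alone.

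**Figure D2:**
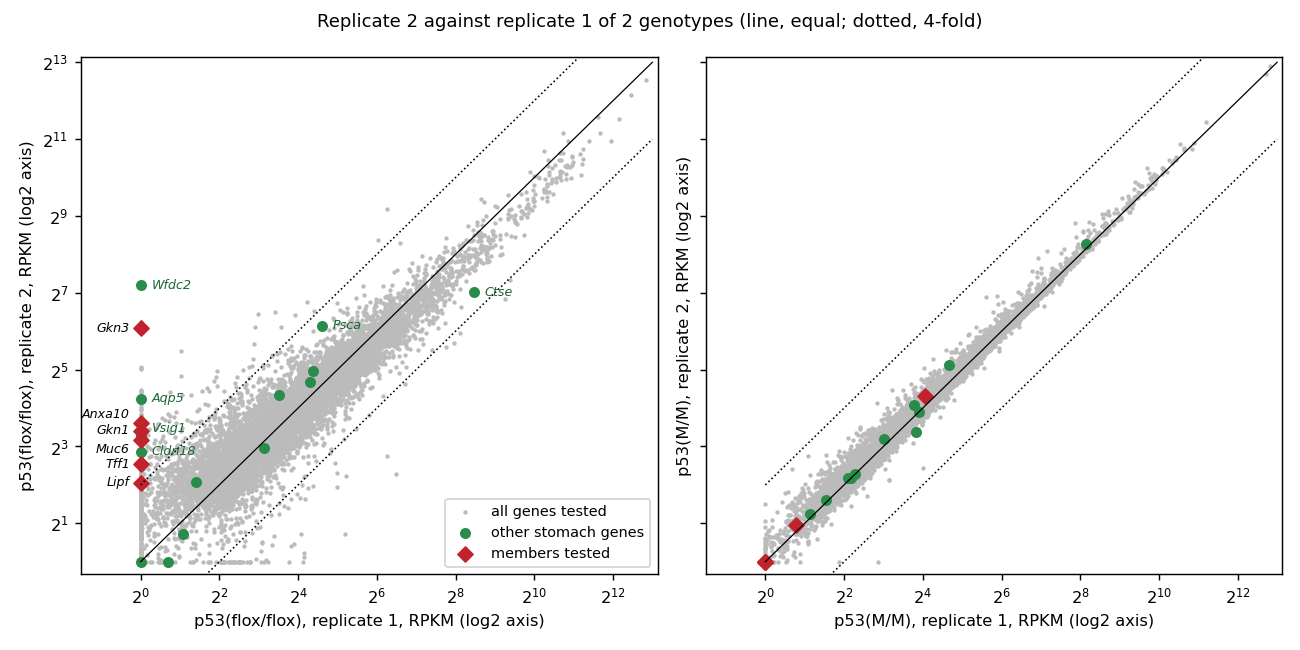
RPKM of all 10042 tested genes (grey) in replicate 2 against replicate 1, for p53(flox/flox) on the left and p53(M/M) on the right, both axes log2, with the line of equality and dotted lines at a 4-fold difference; red diamonds are the 6 tested stomach genes and green circles the 16 other tested stomach genes. In p53(flox/flox) all 6 diamonds stand at the floor of replicate 1, and in p53(M/M) the diamonds lie near the line.

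Other signs moved with replicate 2. Cdx1, which drives intestinal identity, was at 4.73 RPKM there, against 37.0 in p53(flox/flox) replicate 1 and 19.8 to 32.3 in the other 4 libraries, while Cdx2 was at 52.8, within its range of 40.8 to 104 elsewhere. Of 8 markers of fibroblasts and muscle, 4 were above the floor in replicate 2, Acta2 at 11.5 RPKM, Col1a1 at 2.44, Pdgfra at 1.23 and Dcn at 1.05. In the other libraries at most 1 was, and Col1a2, Col3a1, Myh11 and Des were at the floor in all 6. The summed level of these 8 was 20.2 in replicate 2 and 8 to 8.59 elsewhere, where 8 is all of them at the floor. Of 7 immune markers, Cd68 was above the floor in all 6 libraries (2.06 to 11.1 RPKM) and Lyz2 in replicate 2 alone (5.67), and Ptprc, which all leukocytes carry, was at the floor throughout. The summed immune level was 21.8 in replicate 2, 15.9 to 16.2 in p53(+/+) and 8.06 to 8.41 in the other 3 libraries. Of 5 squamous markers, Krt4 was above the floor in all libraries, Krt14 reached 4.95 in replicate 2 and at most 1.71 elsewhere, and Krt5, Krt13 and Trp63, which define squamous epithelium, were at the floor in all 6. Of 7 markers of pancreatic acinar cells, only Cela1 was above the floor in any library (5.81 to 21.9 RPKM). The part of these cells or factors in the stomach gene levels was not tested.

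A list of 32 further stomach genes, written for pit, neck, chief, parietal and endocrine cells and for transcription factors of stomach and foregut, was read beside the 10. Of these, 16 passed the filter, 11 were at the floor in all 6 libraries and 5 stayed under 4 RPKM. The genes at the floor throughout included several that define the mature cells. Atp4b of the parietal cell proton pump, the chief cell genes Gif and Pga5, the hormone gene Gast and Sox2, a transcription factor of the stomach, were among them. Atp4a, the other subunit of the pump, was at 1.09 RPKM in p53(flox/flox) replicate 2 and at 1.35 and 1.27 in p53(M/M), and at the floor in the other 3 libraries. Pgc, the pepsinogen C gene, reached 1.34 RPKM in p53(flox/flox) replicate 2 and was at the floor in the other 5 libraries.

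Of the 16 tested, 6 were at least 4-fold higher in p53(flox/flox) replicate 2 than in replicate 1, namely Aqp5, Cldn18, Clic6, Pdx1, Vsig1 and Wfdc2, and none the reverse (2.32% and 0.747% of all tested genes). Cldn18, Vsig1 and Aqp5 passed the filter through replicate 2 alone, so that their gap was fixed by it. Cldn18, whose gastric form seals the stomach epithelium, and Vsig1, a junction protein, were at the floor in 5 libraries and at 7.27 and 9.71 RPKM in replicate 2. Wfdc2, a secreted protein of the whey acidic protein family, was at 2.98 and 2.89 RPKM in p53(+/+), the floor and 146 in p53(flox/flox), and 25.2 and 34.6 in p53(M/M). Aqp5, a water channel of gastric glands, was at 1.89 and 3.38, the floor and 18.9, and the floor in both p53(M/M) libraries, an order like that of Gkn3 and Anxa10. Clic6, an intracellular chloride channel protein, was at 35.2 and 33.3 RPKM in p53(+/+), the floor and 10.2 in p53(flox/flox), and 2.90 and 3.07 in p53(M/M), which is the order of Lipf except that p53(M/M) stayed above the floor. Pdx1, a foregut homeobox factor, was at 5.26 and 4.41, the floor and 9.78, and 2.20 and 2.38 RPKM.

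**Figure D3:**
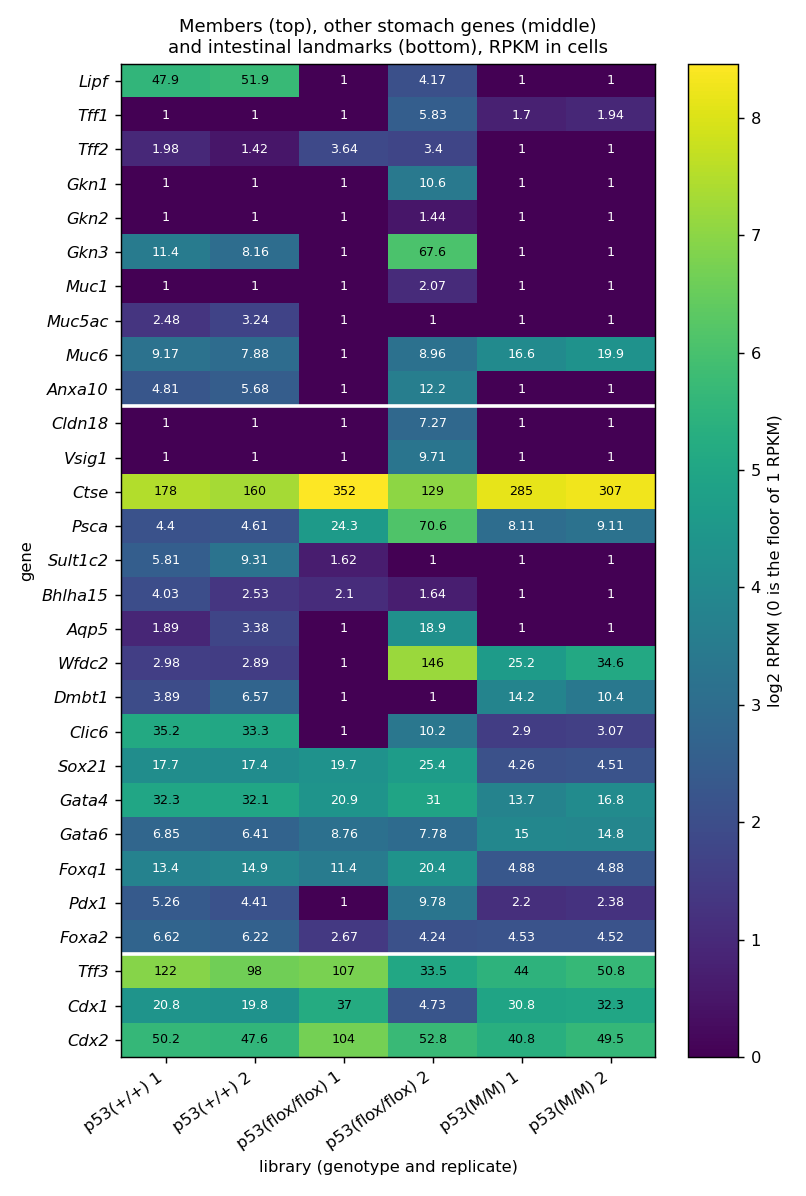
Heat map of log2 RPKM (colour, 0 is the floor) with the RPKM value in each cell, for the 10 stomach genes (top), the 16 other tested stomach genes (middle) and Tff3, Cdx1 and Cdx2 (bottom) in the 6 libraries. The column of p53(flox/flox) replicate 2 holds 9 of the 10 above the floor and the lowest Cdx1 (4.73 RPKM), and the column of replicate 1 holds only Tff2.

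Between p53(M/M) and p53(+/+), limma called 6 of these 16, beside 12.2% of all genes. Sox21, a factor of the foregut, was lower, from 17.7 and 17.4 RPKM in p53(+/+) to 4.26 and 4.51 (difference -1.79, s.e. 0.15, limma adjusted p = 0.00441). Sult1c2, a sulfotransferase of surface cells, fell from 5.81 and 9.31 RPKM to the floor in both p53(M/M) libraries (-2.07, limma adjusted p = 0.0130). Foxq1, which is needed for Muc5ac in pit cells, was lower by -1.36 (limma adjusted p = 0.0367), Gata4 by -1.04 (adjusted p = 0.0385) and Bhlha15, a factor of secretory cells, by -1.07 (adjusted p = 0.0411). Bhlha15 was at 4.03 and 2.53 RPKM in p53(+/+) and at the floor in both p53(M/M) libraries. Sult1c2 and Bhlha15 passed the filter of 4 RPKM through p53(+/+) libraries alone, so that the filter favoured their lower direction. Gata6 was the one called higher, at 15.0 and 14.8 RPKM against 6.85 and 6.41 (1.06, limma adjusted p = 0.00783). Gata4 and Gata6, both factors that read AGATAA, thus differed in opposite directions. The median over the 16 was -0.63, beside 0.028 over all genes.

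Between p53(flox/flox) and p53(+/+), 3 of the 16 were called, beside 11.3% of all genes. Psca, a surface protein of pit cells, was higher, at 24.3 and 70.6 RPKM against 4.40 and 4.61 (2.95, limma adjusted p = 0.0274), with no overlap although its p53(flox/flox) libraries were far apart. Dmbt1, a mucin-like scavenger receptor, was at the floor in both p53(flox/flox) libraries against 3.89 and 6.57 (-1.61, limma adjusted p = 0.0275), and Sult1c2 was lower by -1.87 (adjusted p = 0.0206). The direction of Sult1c2 was again favoured by the filter, which it passed through p53(+/+) alone. Between p53(M/M) and p53(flox/flox), 5 were called, beside 24.6% of all genes. Dmbt1 (2.72) and Gata6 (0.78) were higher in p53(M/M), and Sox21 (-2.12), Foxq1 (-1.47) and Psca (-2.15) were lower (limma adjusted p from 0.00247 to 0.0327). In the p53(flox/flox) libraries Sox21 was at 19.7 and 25.4 RPKM, Foxq1 at 11.4 and 20.4, and Gata6 at 8.76 and 7.78. The medians over the 16 were 0.19 and -0.51, beside -0.025 and 0.03 over all genes. Cldn18, Vsig1 and Aqp5 passed the filter through p53(flox/flox) replicate 2 alone, which favoured higher p53(flox/flox) values in both medians. For Sult1c2 and Bhlha15, which passed through p53(+/+) alone, the filter favoured the reverse in the first. Ctse, the gastric protease cathepsin E, was the most abundant of the list by its mean over all libraries, and was called in no comparison. Its highest level was 352 RPKM in p53(flox/flox) replicate 1 and its lowest 129 in replicate 2, the reverse of the order of Wfdc2 and the other genes with a 4-fold gap. Without 1 library of the 3 genotypes in turn, limma called 0 to 14, 0 to 13 and 1 to 13 of the 16 in the order of the comparisons, fewest without a p53(+/+) or p53(M/M) library and most without a p53(flox/flox) library.

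**Figure D4:**
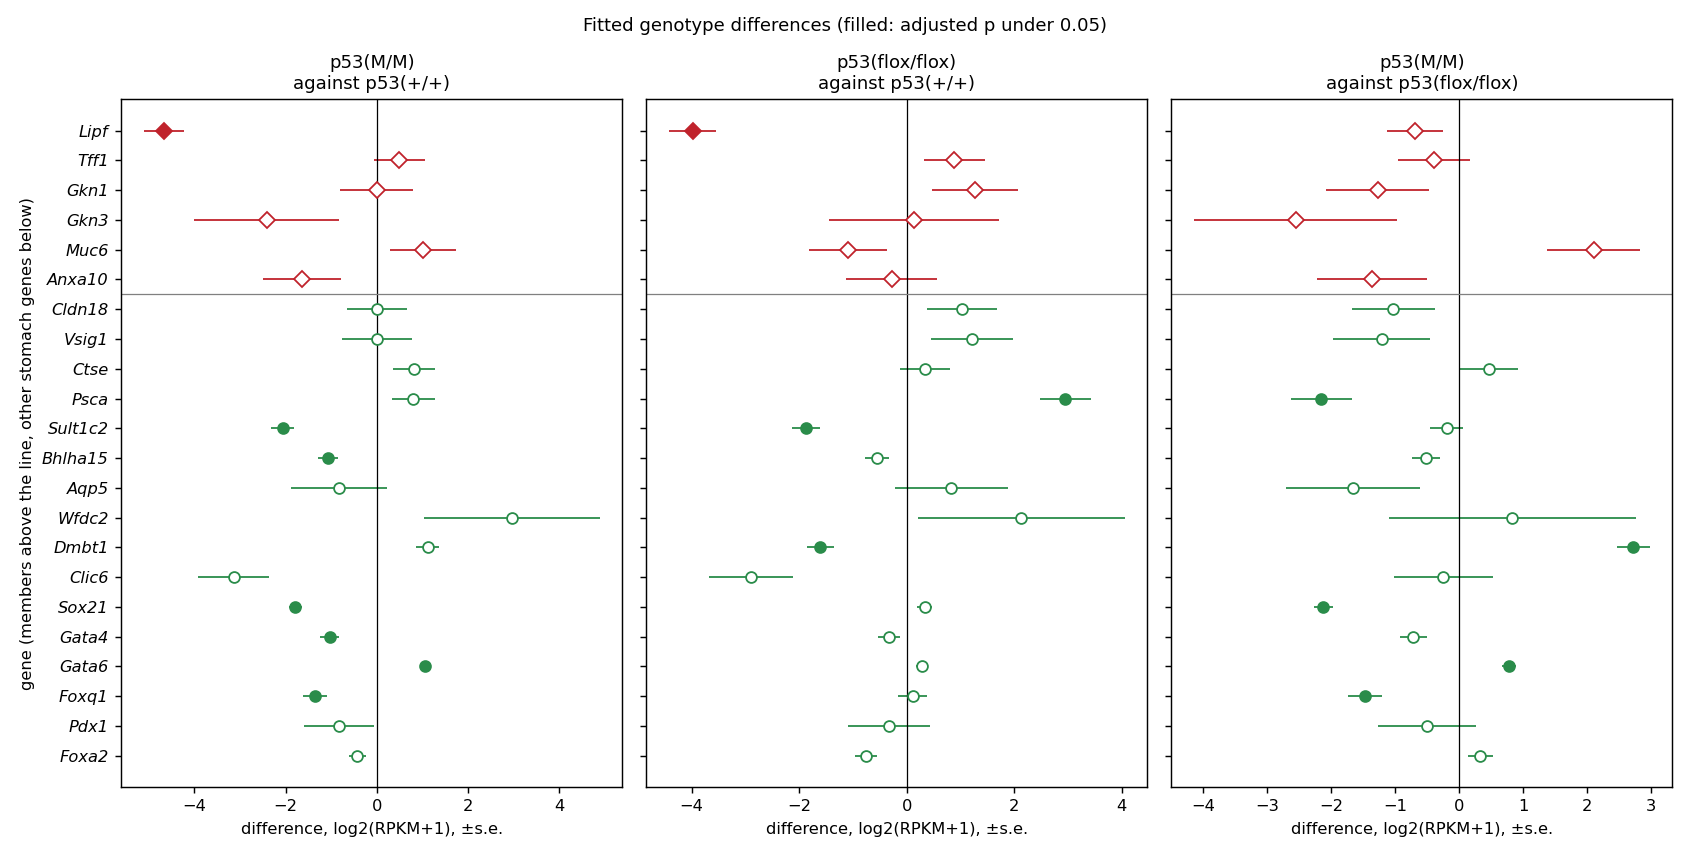
Differences in log2(RPKM+1) with their s.e. from the limma fit of all 6 libraries, for the 6 tested stomach genes (red diamonds) and 16 other stomach genes (green circles) in the 3 comparisons; filled symbols were called at an adjusted p under 0.05. Lipf is filled in both comparisons with p53(+/+), and the widest bars belong to genes that separate the 2 p53(flox/flox) libraries, such as Gkn3 (s.e. 1.59).

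Genes that build the sugar chains of gastric mucins and fold mucins were read as a further list. Of 13 listed, 10 were tested, and A4gnt, which makes the sugar chain typical of Muc6, was at the floor in all 6 libraries. In p53(M/M) against p53(+/+), 2 were called lower, Fut1 (-2.15, limma adjusted p = 0.00409) and Gcnt3 (-2.19, adjusted p = 0.00434), and none higher, beside 12.2% of all genes called. Gcnt3, which branches mucin sugars, was at 44.1 and 47.0 RPKM in p53(+/+), 29.8 and 22.1 in p53(flox/flox), and 9.26 ± 1.11 (mean ± SD, n = 2) in p53(M/M). Its order was opposite to that of Muc6 between p53(+/+) and p53(M/M). In p53(flox/flox) against p53(+/+) the same 2 and Agr2, a chaperone of mucin folding (-1.60, limma adjusted p = 0.0274), were called lower, beside 11.3% of all genes. Agr2 was at 71.1 ± 25.5 RPKM (mean ± SD, n = 2) in p53(flox/flox) and 211 ± 16.5 in p53(+/+). Fut1, which adds fucose to sugar chains, was at 8.97 and 7.74 RPKM in p53(+/+), 3.12 and 4.01 in p53(flox/flox), and the floor and 1.20 in p53(M/M). Between p53(M/M) and p53(flox/flox), Fut1 and Gcnt3 were called lower in p53(M/M), beside 24.6% of all genes. Of the 10 annexins tested, 3, 3 and 4 were called in the comparisons in the same order, beside 12.2%, 11.3% and 24.6% of all genes, with Anxa1 called in all 3, by -0.93, 0.76 and -1.69 (limma adjusted p = 0.0156, 0.0292 and 0.00288). The 2 other trefoil and mucin genes tested, Tff3 and Muc13, were called in none. Muc2, the gel-forming mucin of intestinal goblet cells, did not pass the filter. It has 2 entries in the table, one at the floor in all 6 libraries and the other at most at 1.42 RPKM.

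For each tested stomach gene, the 3 genes with the most similar profile over the 6 libraries were found by the root mean square difference of log2(RPKM+1) after centring each gene on its own mean. This is a measure of likeness among all tested genes and was not tested. Lipf was most like Reg3b (0.202) and Reg3g (0.457), antimicrobial lectins of the intestine, and 9030617O03Rik (0.510). Reg3b was at 49.6 and 39.9 RPKM in p53(+/+), the floor and 2.78 in p53(flox/flox), and the floor in both p53(M/M) libraries. Gkn1 was most like Cnfn (0.037), a protein of the cornified layer of squamous epithelium, Vsig1 (0.045) and Tmem45a (0.107), all 3 at the floor in 5 libraries and at 9.71 to 13.2 RPKM in p53(flox/flox) replicate 2. Gkn3 was most like Spp1 (0.408), the secreted protein osteopontin, at 5.41 and 5.16 RPKM in p53(+/+), the floor and 75.2 in p53(flox/flox), and 1.15 and the floor in p53(M/M), followed by Clu (0.672) and Tek (0.702). The range of Gkn3, 5.10 on this scale, was the widest of the tested stomach genes, and the differences were not scaled by range. Anxa10 was most like Slc9a4 (0.199), a sodium-proton exchanger of the stomach, Slc45a3 (0.211) and Cyp1b1 (0.225). Muc6 was most like Prox1 (0.164), a homeobox factor, which was at 56.0 and 47.2 RPKM in p53(+/+), 7.34 and 50.7 in p53(flox/flox), and 102 and 98.1 in p53(M/M), then Neat1 (0.268) and Sntb1 (0.274). Tff1 was most like Trp53i11 (0.124), Scara3 (0.135) and BC030476 (0.149), each highest in p53(flox/flox) replicate 2.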

How the data were processed

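RNA-seq was made from 6 organoid libraries, 2 for each of the 3 Trp53 genotypes. The authors sequenced poly(A) RNA from stranded libraries on an Illumina HiSeq, aligned them to mm10 and obtained RPKM from StrandNGS. The deposited file used here lists RPKM of 36172 genes. The StrandNGS version, annotation and read filters are not given in the sources used here. The floor of 1 RPKM was inferred from the values: 23760 genes had it in all 6 libraries. Ratios against it are lower bounds, and pseudocounts were added above it.

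The members and gene lists were chosen with earlier results of these data known. Every member is named, with each further stomach gene that passed the filter, up to 4 examples of other lists, and the 3 genes most like each tested member; further genes named beside them, such as genomic neighbours and silent defining markers, were chosen after their values were seen. Depth was estimated from the 1-read steps of genes under 230 nt, on a grid from 20 to 70 M reads. RefSeq (GRCm38.p6) matched 32891 of the genes and 10007 of the 10042 tested. Limma 3.58.1 (R 4.3.3) fitted log2(RPKM+1) with lmFit and eBayes (trend=TRUE) on all 6 libraries without a block. Python 3.11.15, numpy 2.4.6, pandas 2.3.3 and matplotlib 3.10.9 were used. The code was tested on simulated data.

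The alternatives were a filter of 1 RPKM, none, or 4 RPKM in both libraries of a genotype; a pseudocount of 0.1 or none; median-of-ratios and upper-quartile scaling; no trend; weights by genotype; only the genotypes compared; a block on the replicate number, as given or exchanged for p53(M/M); and each library left out. With 1 library left in a genotype, it was assumed to vary like the others.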

Additional observations from a re-analysis of the deposited data

How the results depend on the processing

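The counts of called stomach genes, in the order p53(M/M) against p53(+/+), p53(flox/flox) against p53(+/+) and p53(M/M) against p53(flox/flox), were 1, 1 and 0 of 6 for the members and 6, 3 and 5 of 16 for the further stomach genes. Pseudocounts of 0.1 or none, both scalings, no trend and 4 RPKM in both libraries left every one of these counts within 1.5 times. A filter above 1 RPKM gave 2, 3 and 1 of 10 members, beside 15.4%, 11.8% and 24.6% of 12412 genes. With no filter limma called 3, 3 and 1 of 10 members and 22 and 19 of 32 further genes in the first and the second comparison; this fit, in which 23760 genes at the floor in every library had no spread, called 27454, 27253 and 756 of 36172 genes in the 3 comparisons, and the cause was not tested. Weights for each genotype gave 5 members in the first comparison and 14 and 3 further genes in the first and the third, where they called 59.6% and 5.32% of all genes. Fits of the compared genotypes alone gave 5 and 0 members and 14, 0 and 2 further genes, beside 57%, 0.468% and 3.76% of all genes. Leaving out 1 library moved the members called over 0 to 5, 0 to 5 and 0 to 6, and the further genes over 0 to 14, 0 to 13 and 1 to 13; the fits without a p53(+/+) or p53(M/M) library called fewest and those without a p53(flox/flox) library most.

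The difference of Gkn3 between p53(flox/flox) and p53(+/+), 0.14, turned to -0.18 with a pseudocount of 0.1, to -0.23 with none, and ranged from -2.41 to 2.69 with 1 library left out. In the same fits that of Muc6 ranged from -2.25 to 0.068 and that of Anxa10 from -1.64 to 1.08, and that of Tff1 between p53(M/M) and p53(flox/flox) from -1.28 to 0.49. Leaving aside the fit with no filter, Lipf kept its direction in all 17 alternatives of both comparisons with p53(+/+) and was called in 13 and 12 of them.

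Same-numbered libraries came from different mice, so the numbers do not pair them. Their deviations correlated by 0.117 between p53(+/+) and p53(flox/flox). Both correlations with p53(M/M) were negative, -0.291 for p53(+/+) and -0.196 for p53(flox/flox). With a replicate block the members called were 1, 1 and 0 and the further genes 4, 1 and 5. With the p53(M/M) numbers exchanged, tried after seeing the data, these were 1, 1, 0 and 5, 3, 5. The calls over all genes went from 1227, 1133 and 2469 to 550, 280 and 1156 with the block as numbered. They were 941, 873 and 2276 with the numbers exchanged.

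Levels under the floor are unknown, so differences against it are understated, and genes such as Gkn2 and Muc1 near it cannot be ranked. With 2 libraries per genotype, 1 of them apart, the p53(flox/flox) level of Lipf, Gkn3, Muc6 and Anxa10 is known only as 2 separate values.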
